A study of Mus musculus with 4 samples.

Results

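Metallothioneins and the proteins that take up, store and export iron were followed in dorsal cortex dissected from E18.5 mouse embryos (E, embryonic day). The set holds 9 genes of 19938 with a single gene symbol on the array: Mt1, Mt2, Mt3, Cybrd1, Tfrc, Slc11a2, Fth1, Slc40a1 and Cp. They were chosen by name with their mutant and control values already known, so those values are given here as a description, without a test, and nothing is inferred from the set as a whole. Each gene had 1 feature, and all 9 were found. For 8 of them the mean over the 4 arrays lay above log2 6.16, the level below which genes were left out of the test across genes. Cp lay below it.

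Metallothioneins are small proteins rich in cysteine that bind zinc and copper. Mt1 and Mt2 are induced by metals through the zinc-sensing factor MTF1, and by stress hormones, and are known in brain chiefly from astrocytes, whereas Mt3 is a largely brain-specific form. Iron enters cells bound to transferrin through the transferrin receptor (Tfrc) or as reduced iron through the transporter DMT1 (Slc11a2). It is stored in ferritin, whose heavy chain is Fth1, and leaves through ferroportin (Slc40a1) with the help of the copper enzyme ceruloplasmin (Cp), which oxidises it. Cybrd1 encodes a cytochrome b reductase that turns ferric into ferrous iron. Transferrin receptor RNA stability and ferritin translation are controlled by iron-regulatory proteins, and only the RNA level was measured here.

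The study set 2 control arrays against 2 mutant arrays of total RNA from tissue taken directly from the animals, with no treatment. Controls carried the genotype Mek1fl/wt, Mek2-/-, and mutants Mek1fl/fl, Mek2-/- with NestinCre, a Cre transgene active in neural progenitors and their progeny. Every embryo therefore lacked Mek2, although the series text speaks of wild type. The labels name NestinCre for the mutants alone, so the transgene and the loss of Mek1 cannot be told apart. MEK1 and MEK2 are the kinases that activate ERK1 and ERK2. Xist, made from the silenced X chromosome of females, was at 11.90 on control 1 and 11.89 on mutant 2, and at 5.35 on control 2 and 4.81 on mutant 1. Each group thus held a female and a male array from different embryos, and the spread within a group includes sex. The labels give no litter or batch. Map2k1, the gene of MEK1, was at 8.76 and 8.84 in controls against 8.50 and 8.73 in mutants (limma adjusted p = 0.469). Map2k2 was at 8.57 and 8.47 in controls and at 8.57 and 8.64 in mutants (limma adjusted p = 0.657). The sources used here do not say which probes lie in the deleted parts, and these features therefore do not check the genotypes. Neurod6, a factor of the excitatory neurons of dorsal cortex, was between 12.02 and 12.11 on the 4 arrays. All levels are log2 values as deposited, after RMA normalization by the authors, and a difference is mutant minus control on that scale.

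Mt4, Mt3, Mt2 and Mt1 follow each other without another protein-coding gene between them in the RefSeq annotation (GRCm38.p6). RefSeq promoter windows, running from 250 bases before to 50 bases after a start site, were at hand for 7 of the 9 genes. Those of the 3 metallothioneins are shown because these genes were lower together and because the core of the metal response element, the site bound by MTF1, can be read in them. Capitals mark the matches to TGCACNC or TGCGCNC on either strand.
Mt1: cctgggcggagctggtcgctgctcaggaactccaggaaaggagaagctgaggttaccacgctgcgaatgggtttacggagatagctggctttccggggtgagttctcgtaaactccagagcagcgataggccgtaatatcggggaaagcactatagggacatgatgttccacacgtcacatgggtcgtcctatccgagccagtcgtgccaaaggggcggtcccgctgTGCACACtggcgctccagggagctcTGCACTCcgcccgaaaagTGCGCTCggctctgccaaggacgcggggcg
Mt2: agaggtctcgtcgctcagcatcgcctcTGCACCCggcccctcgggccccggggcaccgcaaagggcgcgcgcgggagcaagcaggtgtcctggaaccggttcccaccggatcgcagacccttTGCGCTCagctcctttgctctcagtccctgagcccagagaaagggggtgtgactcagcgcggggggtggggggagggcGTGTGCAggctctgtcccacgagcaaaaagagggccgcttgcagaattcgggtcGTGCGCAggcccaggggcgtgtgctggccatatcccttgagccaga
Mt3: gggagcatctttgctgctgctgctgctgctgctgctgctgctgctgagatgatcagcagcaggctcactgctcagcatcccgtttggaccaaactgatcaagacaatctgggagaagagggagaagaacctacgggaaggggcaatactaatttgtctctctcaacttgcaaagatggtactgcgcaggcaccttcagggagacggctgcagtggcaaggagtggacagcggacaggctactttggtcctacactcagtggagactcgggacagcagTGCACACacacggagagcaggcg
The windows lie on the plus strand at chr8:94178839-94179138 for Mt1, chr8:94172368-94172667 for Mt2 and chr8:94152357-94152656 for Mt3.

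The Mt1 window held 3 matches, all on the sense strand, which began at positions -23, 3 and 21. Positions are counted from the annotated RefSeq start site, with its first base as 1. Whether transcription begins at that base in this tissue was not tested, and matches outside the window were not counted. The Mt2 window held 4, beginning at -223 and -128 on the sense strand and at -50 and 5 on the other strand. In the Mt3 window there was 1 match, at 28 to 34, downstream of the start site. Of 32851 RefSeq windows of the same length, 25.7% held at least 1 match, 1.97% at least 3 and 0.517% at least 4. Cybrd1 had no match in its window, nor did Cp and Fth1 in the 2 windows each of them has. Of the 2 Tfrc windows, 1 held 2 matches that overlap on opposite strands. A match describes letters in a window and says nothing of binding.

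The 3 metallothioneins were lower in the mutants by similar amounts. Mt1 was at 9.94 and 10.00 in controls and at 9.23 and 9.47 in mutants. Its difference was -0.62 ± 0.09 (SE from the fit over all genes, as below), which is 1.53-fold, with means of 9.97 ± 0.05 and 9.35 ± 0.17 (SD, n = 2 each). The lower control and the higher mutant stood 0.46 apart, and mutant 1 was the lowest array.

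Mt2, the close paralogue of Mt1, was at 10.04 and 9.83 in controls and at 9.25 and 9.49 in mutants. The difference was -0.56 ± 0.11 (SE), or 1.48-fold, and the groups stood 0.34 apart. Mutant 1 was again the lowest array, by 0.24 below mutant 2, the same step as in Mt1. The sources used here do not give the probe sequences, so how far the features keep such similar transcripts apart is unknown.

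Mt3, first described as a growth inhibitory factor of brain, was at 10.24 and 10.05 in controls and at 9.51 and 9.49 in mutants. It differed by -0.65 ± 0.08 (SE), or 1.56-fold, with a gap of 0.54 between the groups. Unlike Mt1 and Mt2, its mutant arrays lay within 0.03 of each other, and it was the only gene of the set in which mutant 1 was not below mutant 2. Among all genes tested, 64.0% were lower in mutant 1 than in mutant 2. The fourth gene of the cluster, Mt4, known from stratified epithelia, was dim, at 5.63 and 5.60 in controls and at 5.62 and 5.55 in mutants.

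The nearest measured genes on both sides of the cluster, looked up after the metallothionein values were seen, showed no difference past the threshold. Bbs2 differed by -0.16 ± 0.08 (SE, limma adjusted p = 0.498) and Ogfod1 by 0.04 ± 0.05 (adjusted p = 0.816) on the side of Mt4. Beyond Mt1, Nup93 differed by -0.03 ± 0.09 (limma adjusted p = 0.932) and Slc12a3 by -0.09 ± 0.08 (adjusted p = 0.669).

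Cybrd1 had a larger difference than any other gene of the set. The reductase was at 8.41 and 8.28 in controls and at 6.96 in each of the mutant arrays. Its mean went from 8.34 ± 0.09 to 6.96 ± 0.003 (SD, n = 2 each), a difference of -1.38 ± 0.07 (SE), or 2.61-fold. The gap between the groups, 1.32, exceeded the distance of 0.13 between the controls.

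**Figure D1:**
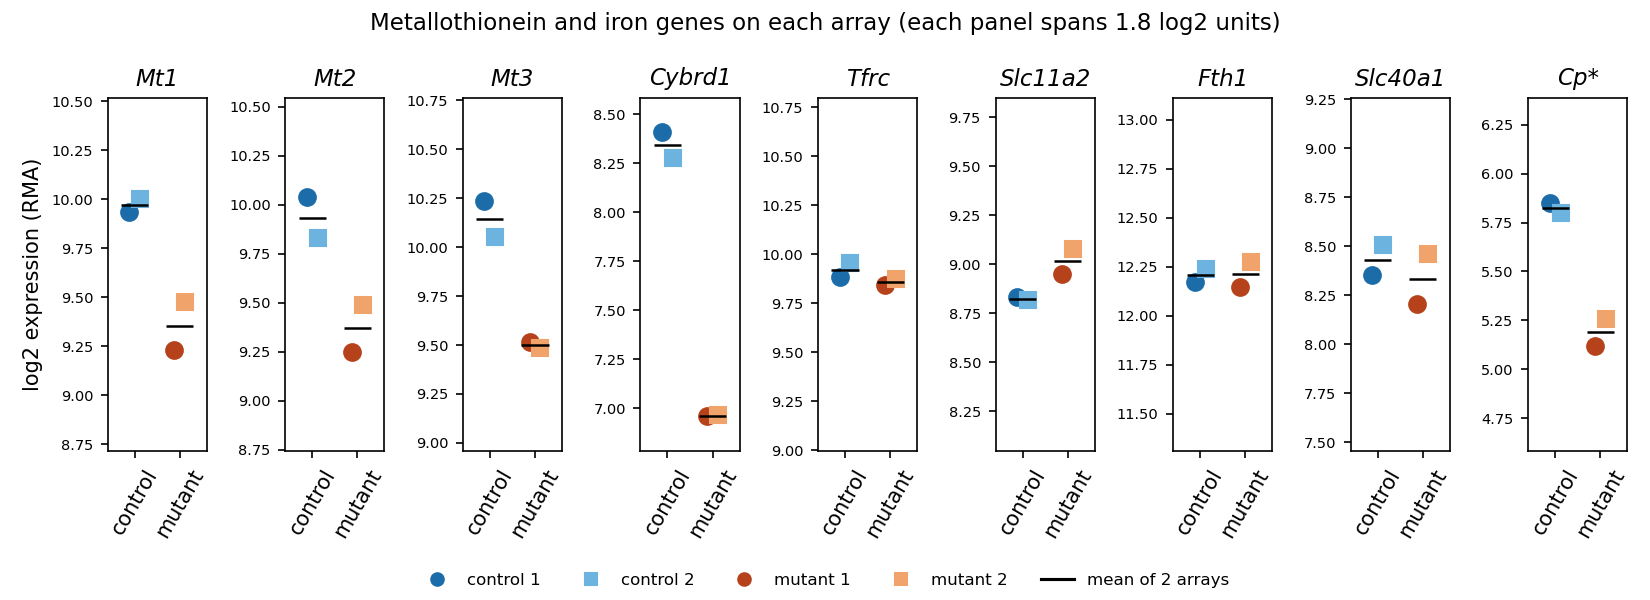
Each panel shows 1 gene on its own log2 scale, with the same span in every panel. Points are single arrays and lines the mean of 2 arrays, and the asterisk marks Cp, which was too dim to be tested. Mt1, Mt2, Mt3, Cybrd1 and Cp show a gap between control and mutant arrays of 0.34 or more, while Tfrc, Fth1 and Slc40a1 lie at about the same level in both groups.

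The iron uptake genes differed by smaller amounts, with Tfrc at about the same level in both groups. Tfrc was at 9.89 and 9.95 in controls and at 9.84 and 9.87 in mutants, a difference of -0.06 ± 0.06 (SE). Its groups stood only 0.01 apart, less than the distance of 0.07 between the controls. Slc11a2 was the single gene of the set that was higher in both mutants, at 8.83 and 8.82 in controls and at 8.95 and 9.08 in mutants. That difference was 0.19 ± 0.07 (SE), or 1.14-fold, and the gap between the groups was 0.12.

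Iron storage and export split between 2 genes with overlapping groups and 1 dim gene that was lower. Fth1 was at 12.17 and 12.24 in controls and at 12.15 and 12.28 in mutants, with a difference of 0.01 ± 0.07 (SE). Slc40a1, ferroportin, was at 8.35 and 8.51 in controls and at 8.20 and 8.46 in mutants, a difference of -0.10 ± 0.11 (SE). Fth1 has pseudogene copies in the mouse genome, and whether its feature also reads them is unknown. In both Fth1 and Slc40a1, mutant 1 was the lowest array, and the mutants differed among themselves by more than the group means did. Without mutant 1 the Slc40a1 difference was 0.03, and without mutant 2 that of Fth1 was -0.06, so neither kept its sign.

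Cp, the ceruloplasmin gene, was at 5.85 and 5.80 in controls and at 5.12 and 5.26 in mutants. The difference was -0.63, or 1.55-fold, and the groups stood 0.54 apart. Because the feature lay below the level of the filter on every array, the size of this difference depends on the array background, and no detection limit was available to set against it. RMA compresses the differences of dim features towards 0.

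Taking the set by counts, 6 of the 9 genes were lower in both mutants than in both controls, 1 was higher and 2 overlapped. Among the 8 tested members the groups did not overlap in 5 that were lower and 1 that was higher, where 21.4% of the 13956 genes tested were lower and 22.8% higher without overlap. A lower mean by at least 0.5 without overlap was found in 4 of the 8, Mt1, Mt2, Mt3 and Cybrd1, and in 1.86% of genes tested. The members were picked on this contrast, so these counts carry no weight of their own. The median difference was -0.33 over the 8 tested members and 0.01 over all genes tested. With Cp, which was not tested, it was -0.56 over the 9 genes.

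Other genes of metal handling were then taken from 8 lists of 129 genes outside the set. Of these, 121 were in the table, 105 were bright enough to be tested, and none passed in either direction (limma, adjusted p of at least 0.136). Among all genes tested, 1.01% were called lower and 0.0143% higher at an adjusted p under 0.05. At an unadjusted p under 0.05, 4 metal genes were lower and 4 higher, 7.62% of the 105 against 13.4% of all genes tested. Their differences ran from -0.28 to 0.27 with a median of -0.02, and none reached 0.5 in size. In 26 of them (24.8%) the mutants were lower without overlap and in 14 (13.3%) higher, against 21.4% and 22.8% of all genes tested. When mutant 2 was left out, 2 of the genes were called lower, Hscb, a co-chaperone of iron-sulfur cluster assembly (-0.39, limma adjusted p = 0.0256), and Ppox (-0.35, limma adjusted p = 0.0441).

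The lists around iron entry, storage and sensing had narrow ranges. In the uptake list (12 tested, median difference 0.00) the 2 smallest p-values belonged to Slc25a37, the mitochondrial iron importer mitoferrin (-0.10, limma adjusted p = 0.540), and Snx3, a sorting protein of transferrin receptor recycling (-0.11, limma adjusted p = 0.618). In the storage list (8 tested, median -0.03) these were Blvra, a biliverdin reductase (-0.15, limma adjusted p = 0.323), and Hmox1, heme oxygenase (-0.13, limma adjusted p = 0.486). Among regulators of ferroportin and hepcidin (6 tested, median -0.05) they were Neo1, a co-receptor of hemojuvelin (-0.11, limma adjusted p = 0.639), and the hepcidin paralogue Hamp2 (-0.13, limma adjusted p = 0.726). Sensors and their ubiquitin ligase (9 tested, median -0.00) were led by Cul1, a ligase scaffold (-0.11, limma adjusted p = 0.582), and Egln2, an iron-dependent prolyl hydroxylase (0.07, limma adjusted p = 0.662).

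A few direct partners of the set were looked up after their values were seen. Ftl1, the ferritin light chain, differed by 0.04 ± 0.07 (SE) and Trf, transferrin, by -0.02 ± 0.05 (SE). The iron-regulatory proteins encoded by Aco1 and Ireb2 differed by 0.00 ± 0.07 and 0.03 ± 0.06 (SE). Mtf1, the activator of Mt1 and Mt2, was at 7.96 and 7.97 in controls and at 8.14 and 8.05 in mutants (0.13 ± 0.06, limma adjusted p = 0.440). Heph, the relative of ceruloplasmin known from gut, was too dim to be tested, at 5.98 and 6.20 in controls and at 5.93 and 5.86 in mutants.

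Iron-sulfur cluster and heme genes held the widest differences of the lists. Of 20 cluster assembly genes tested (median -0.03), 14 had lower means in mutants. The smallest p-values were those of 2 higher genes. Ciapin1, an electron donor of the cytosolic machinery, differed by 0.27 (limma adjusted p = 0.136). Ciao2b, which targets clusters to proteins, differed by 0.17 (limma adjusted p = 0.286). Hscb differed by -0.25 (limma adjusted p = 0.395). Of 16 heme genes (median -0.04), Ppox, an oxidase late in heme synthesis, differed by -0.28 (limma adjusted p = 0.207) and the heme exporter Flvcr1 by 0.24 (limma adjusted p = 0.226).

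Copper and zinc lists had medians near 0. The 14 copper genes had a median of 0.02, and the smallest p-values were those of Slc31a2, a copper transporter relative (0.15, limma adjusted p = 0.382), and Cox11, a copper chaperone of cytochrome oxidase (0.10, limma adjusted p = 0.529). The 20 zinc genes had a median of 0.00, led by Slc30a10, a manganese exporter (-0.18, limma adjusted p = 0.260), and Slc39a2, a zinc importer (0.15, limma adjusted p = 0.423). Slc39a12, a zinc importer known from brain and named after its value was seen, was too dim to be tested, at 5.78 and 5.97 in controls and at 5.58 and 5.66 in mutants.

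**Figure D2:**
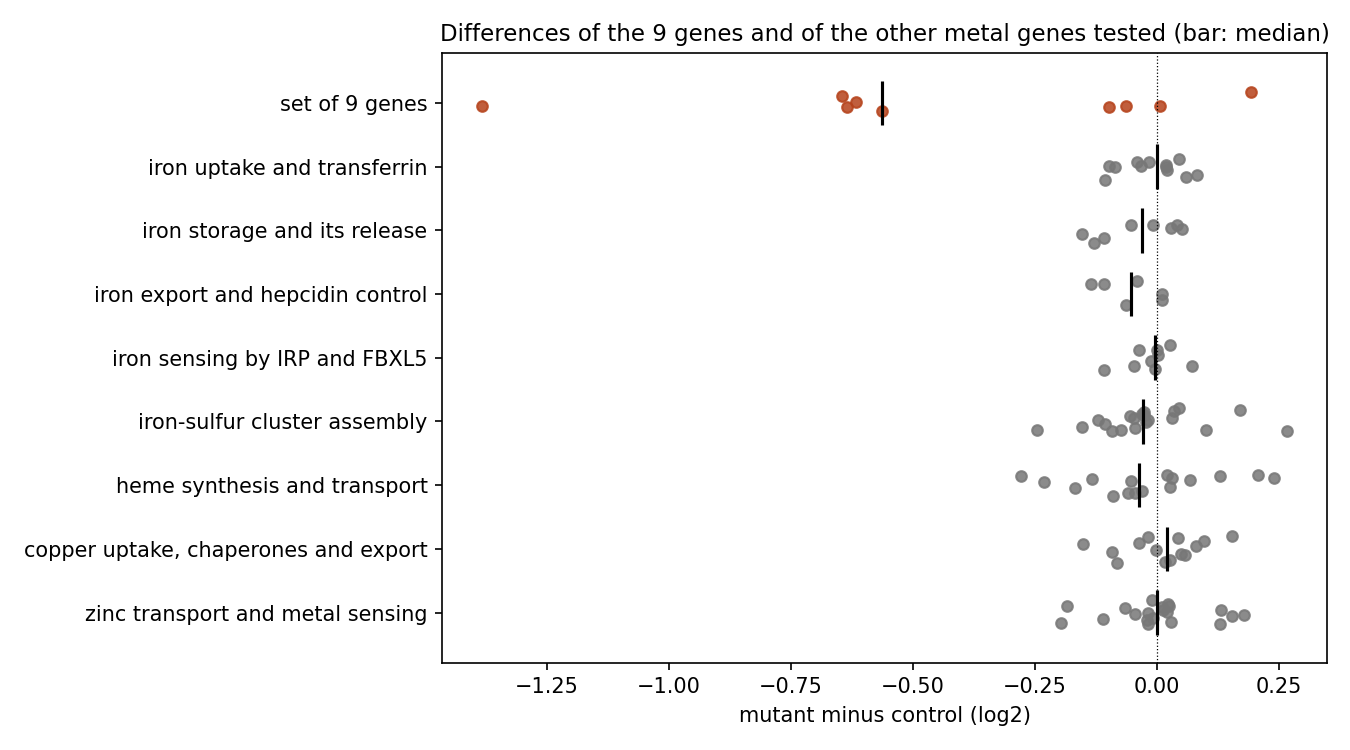
Points are genes, placed by the difference mutant minus control in log2 units, and black bars are medians. The upper line holds all 9 genes of the set, Cp included, and the other lines the 105 tested genes of the 8 lists. The tested genes of the lists lie between -0.28 and 0.27. Mt1, Mt2, Mt3, Cp and Cybrd1 lie at -0.56 or lower, and the set was chosen with its values known.

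Marker genes of glia were lower in the same arrays. Among all genes tested, 1.01% were called lower and 0.0143% higher, and the calls below stand beside these shares. Of the 12 astrocyte markers, 9 were tested and 4 fell (median -0.78), led by Acsbg1, a fatty acyl-CoA synthetase (-1.70), and Aldoc, a glycolytic aldolase (-1.53, limma adjusted p = 0.00538 for each). Of 10 radial glia markers, 4 fell (median -0.45), led by Tnc, tenascin C (-2.21, limma adjusted p = 0.0135), and Fabp7, a fatty acid binding protein (-1.60, limma adjusted p = 0.00538). Of 8 oligodendrocyte precursor markers, 3 fell (median -0.71), led by the receptor Pdgfra (-2.64, limma adjusted p = 0.00934) and the transcription factor Olig1 (-2.16, limma adjusted p = 0.0251). Among the tested members, Gfap of the astrocyte list and Cspg4 of the precursor list had slightly higher means in mutants (0.04 and 0.01). No member of these lists was called higher. Of these 11 calls in all, 7 were made without control 1 and 6 without control 2, and without mutant 2 there were 22. The Tnc call was lost when control 1 or control 2 was left out, and the Olig1 call when control 2 was. With the arrays matched by sex, 7 were called, and with dim genes kept there were also 7. The Olig1 call was lost in both of these settings.

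Summed signals, here and below, cover all measured genes of a list, tested or not. The summed signal of the astrocyte list (log2 of the summed linear values) was between 12.99 and 13.02 in controls and between 11.73 and 12.02 in mutants. For the radial glia list it was between 14.04 and 14.08 in controls and between 13.10 and 13.28 in mutants. The oligodendrocyte precursor list was at 10.89 on each control array and between 9.70 and 9.80 in mutants. Mutant 1 was the lower mutant array in each, as in 8 of the 9 genes of the set and 64.0% of all genes tested. The microglia, endothelial, pericyte and meningeal, choroid plexus and erythroid lists described below had the same order in their summed signals. The order was thus not particular to the astrocyte, radial glia and oligodendrocyte precursor lists. The neuron list had the opposite order. No marker is listed at 0, because RMA gives every feature a value. In whole tissue, fewer cells of a type and less RNA per cell cannot be told apart, and the part of these markers in the differences of Mt1, Mt2, Mt3, Cp and Cybrd1 was not tested.

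Markers of other cells that handle iron had smaller median differences. Microglia markers had a median of -0.25, with none of 7 tested called (3 without mutant 2, Csf1r, Cx3cr1 and C1qc, all lower), and C1qb and C1qc, complement subunits, differed by -0.36 and -0.30 (limma adjusted p = 0.149 and 0.294). The summed signal of the microglia list was between 10.39 and 10.43 in controls and between 10.20 and 10.23 in mutants. Of 9 endothelial markers tested (median -0.05), 1 fell, the thyroid hormone transporter Slco1c1 (-1.09, limma adjusted p = 0.0265), which is also known from glia. This call was lost when control 1 or control 2 was left out, with the arrays matched by sex or when dim genes were kept, and without mutant 2 the lipid transporter Mfsd2a was called lower too. Slc2a1, the glucose transporter of the barrier, differed by -0.10 (limma adjusted p = 0.803). The summed endothelial signal was 12.28 or 12.29 in controls and between 11.87 and 12.15 in mutants.

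Among 9 pericyte and meningeal markers tested (median 0.08) none was called, and 5 were higher in mutants without overlap. The same held for 5 of the 9 neuron markers tested and for 22.8% of all genes tested. Rgs5, a pericyte regulator of G protein signalling, differed by 0.03 (limma adjusted p = 0.938). Dcn was at 6.70 on mutant 1 and between 7.81 and 7.84 on the other arrays, a difference of -0.55. The summed signal of this list was between 11.34 and 11.38 in controls and between 11.31 and 11.51 in mutants. Ttr, the transthyretin of choroid plexus, was at 6.67 and 9.15 in controls and at 6.50 and 7.17 in mutants, so control 2 stood apart. On that array Cp was at 5.80 against 5.85 on control 1, and Slc40a1 at 8.51 against 8.35. The 4 choroid plexus genes tested had a median of -0.12, none called, and the summed signal of that list was 9.07 and 10.04 on the control arrays and 9.07 and 9.23 on the mutant arrays. The 3 erythroid genes tested of 10 listed had a median of -0.08, none called, with Alas2, the erythroid heme synthase, at -0.23 (limma adjusted p = 0.236). The summed signal of the erythroid list was 9.16 and 9.12 on the control arrays and 8.89 and 9.09 on the mutant arrays. The 9 neuron markers tested had a median of 0.07, none called, with Stmn2, a neuronal microtubule regulator, at 0.11 (limma adjusted p = 0.469), and the summed signal was between 15.02 and 15.05 in controls and between 15.11 and 15.15 in mutants.

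**Figure D3:**
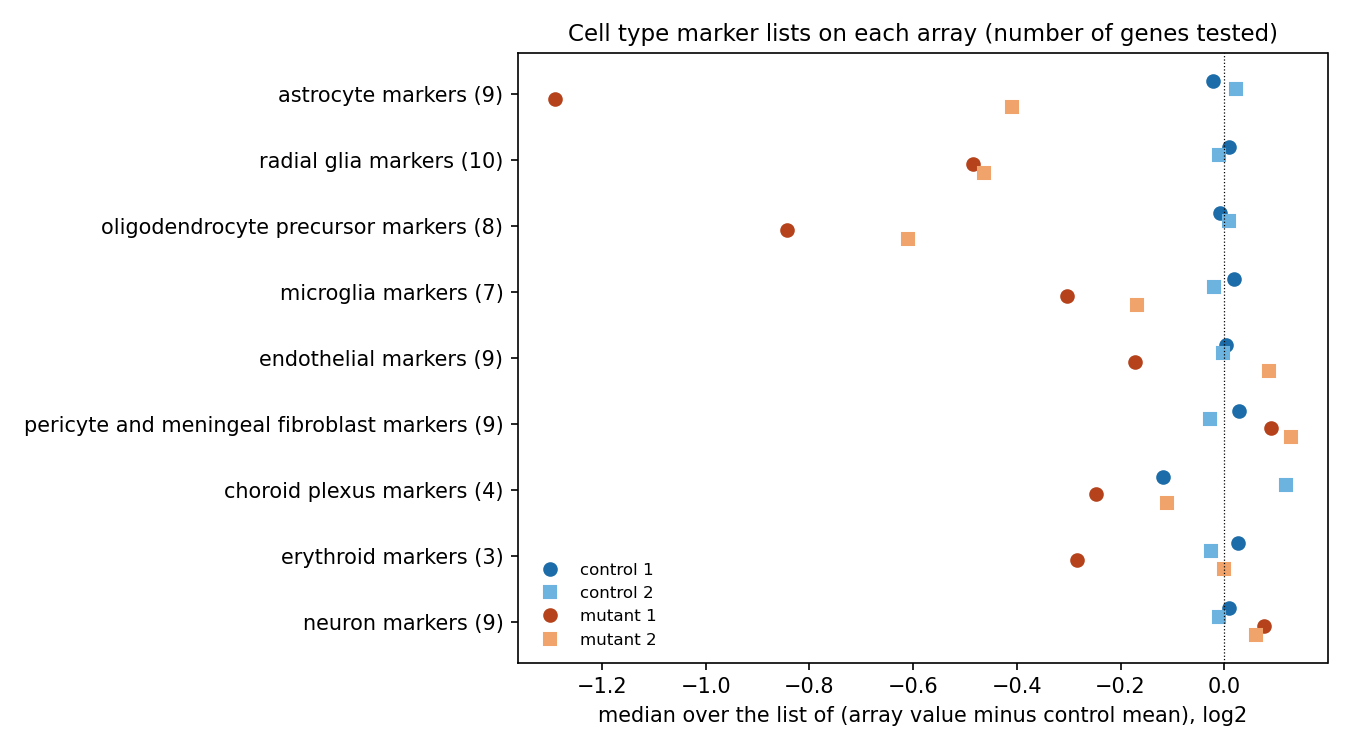
Each line is a cell type marker list, with the number of genes tested in brackets. Points show, for each array, the median over the list of the array value minus the control mean in log2 units. The mutant arrays lie to the left of the controls for astrocyte, radial glia and oligodendrocyte precursor markers and, by a smaller distance, for microglia markers, while neuron markers lie slightly to the right.

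Genes whose pattern over the 4 arrays was most like that of a member were ranked by root mean square distance, after each gene was centred on its own mean, among 13343 other genes tested. Predicted genes (symbols of Gm and a number, or ending in Rik) were left out of the ranking. For Cybrd1 the nearest was Etv5, an ETS transcription factor (0.013), which was at 8.71 and 8.61 in controls and at 7.28 and 7.27 in mutants. It was followed by Aldh1l1, a folate enzyme (0.044), and Aldoc (0.098). For Mt1 the nearest was Apoe, apolipoprotein E (0.011), at 10.53 and 10.62 in controls and at 9.83 and 10.09 in mutants, then Nxt2, an RNA export factor (0.014), and Kif18a, a mitotic kinesin (0.017).

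The patterns nearest to Mt2 were those of Ncaph, a condensin subunit (0.028), Fignl1, a DNA repair ATPase (0.030), and Pcgf5, a Polycomb protein (0.032). Nearest to Mt3 were H1f1, a linker histone (0.029), Luzp2, a leucine zipper protein (0.030), and H2bc14, a core histone (0.034). Sgo2a, a shugoshin of the centromere (0.015), Cdc14a, a phosphatase (0.017), and Csrp1, a LIM protein (0.017), were nearest to Cp. Within the set, Mt1 lay 0.101 from Mt2, 0.131 from Mt3 and 0.057 from Cp, but 0.398 from Cybrd1. A likeness over 4 arrays of 2 groups mostly shows a similar difference between the groups.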

How the data were processed

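Total RNA from 4 samples was hybridised to single-colour whole-transcript arrays. The deposited log2 values are the authors' RMA output (tool named in the submitters' processing notes). The RMA version, genome build and filters were not found in the labels, and the log2 scale was inferred from the spread of values. RMA brings the arrays to a shared distribution, so a change common to most transcripts cannot be seen. Array medians lay between 7.11 and 7.13.

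Symbols came from the platform annotation, updated by Entrez identifier through RefSeq (GRCm38.p6, 21698 of 21789 features matched). Features with several symbols (1621) or not listed (12147) were left out, and the brightest feature of a gene was kept. Genes under the 30th percentile of the mean (log2 6.16) were not tested, which left 13956. The test was limma 3.58.1 (R 4.3.3, eBayes without a trend, two-sided, Benjamini-Hochberg over all genes tested, called under 0.05), with 2 residual and 3.31 prior degrees of freedom, and was tested on simulated data. Members, lists and rules were chosen with earlier results of these data known.

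Beside the members, the rule named every called gene and the 2 smallest p of each metal list. It named the 2 largest differences of marker lists whose median was at least 0.2 in size, otherwise the brightest marker, and the 3 nearest patterns of members differing by at least 0.5. Slco1c1, a single call, the targeted genes, Xist and Neurod6 were named outside it. So were Mt4, Hscb, Gfap, Cspg4, Csf1r, Cx3cr1, Mfsd2a and Dcn. The genes described above as looked up or named after values were seen also lie outside it. Of the metal lists, 8 genes were not analysed here. Alternatives changed the filter, prior, scaling, features of a gene, block and arrays used.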

Additional observations from a re-analysis of the deposited data

How the results depend on the processing

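Under the 2 other scalings the largest move among the differences of the 9 genes was 0.051. It was that of Fth1, from 0.006 to 0.057 after further quantile normalization. The block and the choice of feature cannot move the differences, since the design is balanced and each gene has 1 feature. Leaving out an array moves them by construction within the spread of the replicates, so the ranges only show that spread. Over all these settings they ran from -0.74 to -0.49 for Mt1, -0.68 to -0.44 for Mt2, -0.74 to -0.55 for Mt3, -1.45 to -1.32 for Cybrd1, -0.70 to -0.57 for Cp, -0.10 to -0.03 for Tfrc and 0.13 to 0.26 for Slc11a2. Fth1 (-0.06 to 0.07) and Slc40a1 (-0.23 to 0.03) changed sign. The counts over all genes depended on the fit, from 141 lower and 2 higher in limma. Leaving out 1 array, with the lone array of a group assumed to vary like the other group, gave 9 to 731 lower and 0 to 150 higher, and 0 to 2 other metal genes lower. Without control 1 or control 2 there were 9 lower and none higher. Without mutant 1 there were 230 and 32, and without mutant 2 there were 731 and 150. Keeping dim genes gave 15 lower and 0 higher, the 50th percentile 11 higher, an intensity trend 217 lower and 21 higher, and centring on medians 4 higher. With the replicate number as a block, 113 were lower and 3 higher, and no other metal gene was called. The labels do not say that the numbers pair the samples, and the deviations of same-numbered arrays correlated at -0.16 across genes. The crossed pairing, chosen after seeing the data, matches the arrays by embryo sex as read from Xist and gave 17 lower and 0 higher. The cause of these shifts was not tested. With 2 arrays a group, their number limits the precision, and no signal over background was at hand for dim genes such as Cp.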
